A study of Mus musculus with 4 samples.

Results

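The genes described here are 36 named genes of cholesterol and fatty acid synthesis, taken by symbol. The rule uses no measured value, but the list was drawn up with earlier results of these data known. They comprise 18 enzymes of sterol synthesis, 6 regulators of the SREBP system, 9 enzymes of fatty acid synthesis, desaturation, elongation and activation, and 3 genes of cholesterol efflux and of the liver X receptor (LXR) system. All 36 were among the 24369 genes listed and among the 14143 genes that passed the low-count filter. The lowest count of any of them was 173, for *Tm7sf2* in EV RV replicate 1.

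RNA-seq was carried out on spleen CD4 T cells of WT C57BL/6 mice (age not given in the sources used here), transduced with 1 of 2 retroviruses. Naive cells were activated without polarizing cytokines by anti-CD3 bound to the plate, anti-CD28 in solution and, per the study's methods, recombinant human IL-2 (the labels repeat anti-CD28 in its place). On day 2 they received a GFP-encoding empty vector (EV RV) or the same vector with *Tox* (Tox RV), and on day 5 they were restimulated for 5 h through CD3 and sorted as GFP+. Each group had 2 libraries, described as representing 2 mice, so both groups share the activation, the transduction, the restimulation and the GFP sort. Tox was thus expressed from a retrovirus above the cells' own level, and EV RV cells kept their own *Tox*.

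Cells make cholesterol from acetyl-CoA through mevalonate, isoprenoid diphosphates, squalene and lanosterol. When sterols in the endoplasmic reticulum fall, SCAP escorts the SREBP transcription factors to the Golgi for cleavage, and the released fragments switch on genes of sterol and fatty acid synthesis, among them *Insig1*, whose product holds SCAP back. When oxysterols accumulate, LXR switches on exporters such as ABCA1 and ABCG1. Activated T cells are known to turn SREBP targets on and LXR targets down as they grow and divide.

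The stretches of DNA before the start sites are shown for 6 genes as examples. Those of the 4 sterol enzymes and of *Insig1* hold CCAAT and that of the exporter *Abca1* does not. The former measured higher with Tox RV and *Abca1* lower, but CCAAT did not follow the difference throughout. *Mvk* holds it with a log2 fold change of 0.03, and *Acat2* lacks it with 0.41. Whether CCAAT goes with the difference was not tested. Each is the 250 bases before the annotated start, 5′ to 3′ on the gene's strand, from RefSeq on GRCm38.p6, which is the build called mm10. Capitals mark the letters CCAAT (or ATTGG, the same on the other strand), the GC box GGGCGG (or CCGCCC) and the sterol regulatory element TCACNCCAC. *Hmgcs1* (chr13:119690101-119690350, + strand), *Idi1* (chr13:8885356-8885605, + strand), *Cyp51* (chr5:4104698-4104947, − strand) and *Hsd17b7* (chr1:169969206-169969455, − strand) encode sterol enzymes. *Insig1* (chr5:28071162-28071411, + strand) encodes the SCAP anchor, and *Abca1* (chr4:53159896-53160145, − strand) the cholesterol exporter shown for contrast.
Hmgcs1: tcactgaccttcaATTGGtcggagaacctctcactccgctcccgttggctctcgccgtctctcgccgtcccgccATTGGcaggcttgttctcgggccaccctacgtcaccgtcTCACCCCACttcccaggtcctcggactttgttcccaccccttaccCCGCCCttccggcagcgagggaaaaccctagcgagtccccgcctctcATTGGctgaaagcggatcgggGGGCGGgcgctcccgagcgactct
Idi1: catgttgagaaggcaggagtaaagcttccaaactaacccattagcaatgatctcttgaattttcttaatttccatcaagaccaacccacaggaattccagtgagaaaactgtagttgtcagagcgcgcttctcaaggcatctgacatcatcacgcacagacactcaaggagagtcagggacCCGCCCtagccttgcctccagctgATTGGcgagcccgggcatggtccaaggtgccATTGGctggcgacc
Cyp51: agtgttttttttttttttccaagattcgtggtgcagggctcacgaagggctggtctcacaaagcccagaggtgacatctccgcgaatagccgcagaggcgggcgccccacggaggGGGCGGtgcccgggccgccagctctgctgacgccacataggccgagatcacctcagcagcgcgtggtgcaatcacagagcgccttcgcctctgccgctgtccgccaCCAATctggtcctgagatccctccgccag
Hsd17b7: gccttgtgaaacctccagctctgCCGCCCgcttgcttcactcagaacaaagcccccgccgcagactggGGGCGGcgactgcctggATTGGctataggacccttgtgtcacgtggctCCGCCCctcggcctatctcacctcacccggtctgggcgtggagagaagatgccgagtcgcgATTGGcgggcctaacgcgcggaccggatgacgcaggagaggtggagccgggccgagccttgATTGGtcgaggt
Insig1: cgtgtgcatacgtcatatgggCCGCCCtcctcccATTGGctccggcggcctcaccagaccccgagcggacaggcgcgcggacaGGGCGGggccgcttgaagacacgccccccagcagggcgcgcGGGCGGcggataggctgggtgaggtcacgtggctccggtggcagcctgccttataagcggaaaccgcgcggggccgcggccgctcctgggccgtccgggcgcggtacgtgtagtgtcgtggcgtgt
Abca1: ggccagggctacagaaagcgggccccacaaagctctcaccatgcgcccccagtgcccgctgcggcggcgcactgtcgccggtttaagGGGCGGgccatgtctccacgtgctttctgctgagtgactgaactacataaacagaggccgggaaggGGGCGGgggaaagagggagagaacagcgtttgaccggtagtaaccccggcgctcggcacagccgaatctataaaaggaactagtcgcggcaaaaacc

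A start region was at hand for 28 of the 36 genes, including 15 of the 18 sterol enzymes, and the 3 motifs were searched on both strands. Some genes have several annotated starts, and a gene counted as holding a motif if any of its start regions did. For *Dhcr7*, *Pmvk*, *Insig2* and *Srebf1*, CCAAT stood in some of the start regions and not in others. No matches of different motifs overlapped in these genes. CCAAT, the letters recognised by NF-Y, a partner of SREBP, stood in 14 of the 15 sterol enzyme genes, with *Acat2* the exception, against 37.5% of the 27025 genes with such a region. It stood in 4 of 5 SREBP control genes, in 2 of 6 fatty acid genes (*Fasn* and *Acsl3*) and in 0 of 2 efflux and LXR genes. The region at hand for *Acaca* (chr11:84195188-84195437, + strand) lies inside the gene, which spans 84129635 to 84401651. The start of that span was not searched. The GC box was present in 14 of the 15 sterol enzyme genes, all but *Pmvk*, against 35.4% of genes. The sterol regulatory element in these letters was found in *Hmgcs1* alone of the 28 genes, beginning 137 bases before the start, against 1.22% of genes. The 27025 genes include many that did not pass the low-count filter, as all members did, and shares over the 14143 genes tested were not computed. A match describes the letters of the window and does not show binding. The absence of a match says nothing of elements outside the window or spelled otherwise.

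Depth was 46989997 (EV RV replicate 1), 74548723 (EV RV replicate 2), 61442264 (Tox RV replicate 1) and 49012254 (Tox RV replicate 2) expected counts. *Tox*, the transduced gene, measured 11.7 and 5.73 counts per 1000000 counts (CPM, scaled by TMM) with EV RV, against 121 and 99.9 with Tox RV, which counts the vector and the cells' own gene together, and the libraries matched their labels. Its log2 fold change was 3.68 ± 0.38 (SE) with an adjusted p of 0.490 by edgeR's quasi-likelihood test and 3.79e-24 by DESeq2. EV RV replicate 1 stood apart: it was the lowest or highest of the 4 libraries for 74.1% of genes tested, against 38.8% to 44.5% for the others, and 24.7% of its counts fell on the ribosomal precursor *Rn45s*, against 7.14% to 12%. *Cd4* measured 384 and 324 CPM with EV RV, against 479 and 439 with Tox RV, and all 7 CD4 T cell markers were present. Of the 7, 4 had positive and 3 negative log2 fold changes. *Cd3e* was uneven between the EV RV libraries, at 219 and 71.9 CPM, against 91.2 and 71.6 with Tox RV. The 6 CD8 T and NK cell markers summed to 56.6 and 16.5 CPM with EV RV, against 32.9 and 11.3 with Tox RV, with *Ncr1* at 0 throughout. Of these, *Klrk1* measured 36.6 and 10.5 CPM with EV RV, against 17.2 and 4.86 with Tox RV, and *Klrd1* 14.2 and 1.9 against 10.2 and 1.99. *Cd8a* measured 1.54 and 2.14 CPM with EV RV, against 1.56 and 1.75 with Tox RV, and *Cd8b1* 3.1 and 1.73 against 3.21 and 2.51. The 5 B cell markers summed to 1.16 to 1.62 with *Ms4a1* and *Pax5* at 0, and the 7 myeloid markers to 0.985 to 1.61.

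In transcripts per 1000000 transcripts (TPM), which account for gene length, the desaturase *Scd2* had the highest mean level of the 36 genes at 275, followed by the isoprenoid enzyme *Fdps* at 176, the fatty acid synthase gene *Fasn* at 123 and the citrate lyase gene *Acly* at 96.4. *Scd2* ranged from 208 to 349 TPM and *Fdps* from 117 to 203, so these neighbours came close without overlapping, whereas *Fasn* stayed between 120 and 128, inside the range of *Fdps*. *Srebf2*, *Idi1*, *Srebf1*, *Nr1h2* and *Scap* followed with means of 64.9, 56.2, 54.8, 53.7 and 52.8 TPM. Their ranges overlapped one another. The exporter *Abca1* was lowest at a mean of 1.80 TPM, and its highest library, at 2.23, lay below the lowest library of every other member.

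**Figure D1:**
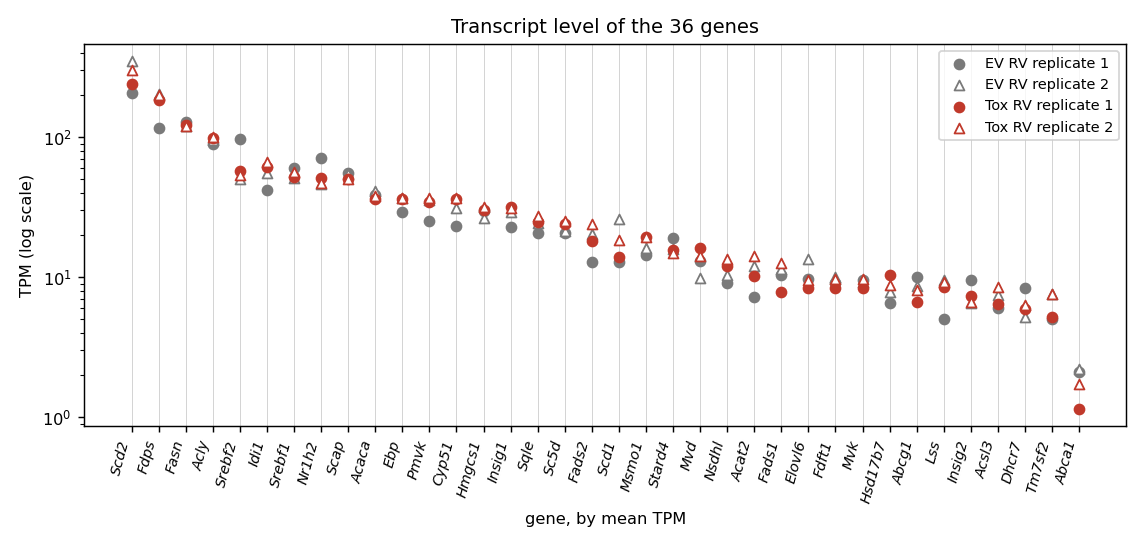
TPM of the 36 genes in each library on a log scale, ordered by the mean over the 4 libraries. Grey marks EV RV and red marks Tox RV, with filled circles for replicate 1 and open triangles for replicate 2. The means run from 275 TPM for Scd2 to 1.80 TPM for Abca1.

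The comparison of Tox RV with EV RV asks which transcripts differ when CD4 T cells are made to express Tox. Most sterol enzyme transcripts were higher with Tox RV by small amounts: the fitted log2 fold change was positive for 16 of 18 with a median of 0.32. For 11 (61.1%, against 18.6% of all genes tested) the groups separated with each Tox RV library higher than each EV RV library. The 3 efflux and LXR genes had negative values, and the SREBP control and fatty acid genes had values of both signs with medians of −0.08 and 0.04. None of the 36 passed the test. At an adjusted p below 0.05 edgeR's quasi-likelihood test called 0 of the 36 against 0% of all genes, and DESeq2 called 0 of the 36 and 22 genes in all. At an unadjusted p below 0.05 each tool had 0 of the 36, against 3.62% of genes tested in edgeR. The smallest unadjusted p was 0.0530, for *Hsd17b7*. With all 36 together, 23 values were positive (50.4% of all genes tested were), the median was 0.14 (0.00 over all genes) and none exceeded a 2-fold difference.

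**Figure D2:**
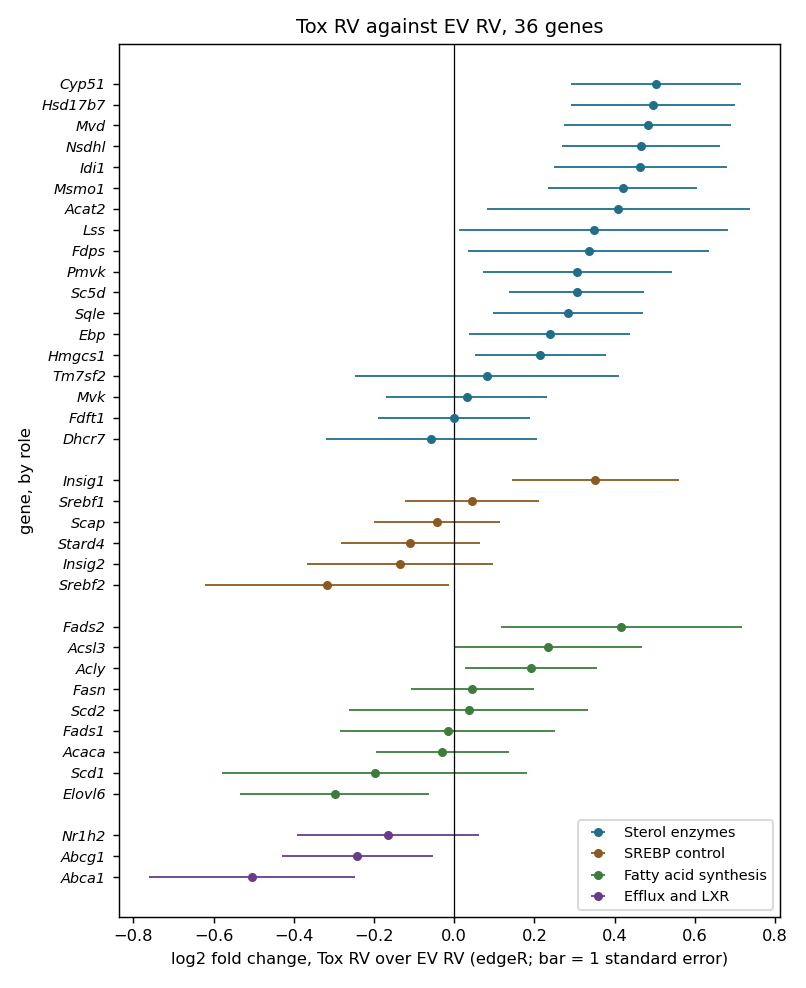
Log2 fold change of Tox RV over EV RV for the 36 genes, grouped by role, with bars of 1 standard error from edgeR's quasi-likelihood fit (n = 2 libraries per group). Of the sterol enzymes 16 of 18 lie above 0, and the values of all genes run from −0.50 for Abca1 to 0.50 for Cyp51.

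This separation, each Tox RV library exceeding each EV RV library, was seen for *Hmgcs1*, *Pmvk*, *Mvd*, *Idi1*, *Sqle*, *Cyp51*, *Msmo1*, *Nsdhl*, *Hsd17b7*, *Ebp* and *Sc5d*, that is for 61.1% of the sterol enzymes against 18.6% of all genes tested. None separated the other way, with Tox RV lower (17.4% of all genes), and the groups overlapped for the other 7. The same 11 enzymes were above under median-of-ratios scaling and under scaling by library totals alone, where the share of all genes was 17.9% and 27.5%. In TPM as deposited 9 of them were above, against 11.6% of all genes, and *Pmvk* and *Ebp* overlapped. In TPM recomputed without *Rn45s* 8 were above, against 10.3% of all genes. EV RV replicate 1 was the lowest of the 4 libraries for 13 of the 18, and for 5237 of all 14143 genes tested. Set against EV RV replicate 2 alone, both Tox RV libraries were higher for 12 of the 18, or 66.7%, with a background of 36.9% of all genes.

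The early enzymes make mevalonate and the isoprenoid diphosphates. *Hmgcs1*, the HMG-CoA synthase, measured 61.1 and 56.5 CPM with EV RV, against 66.7 and 69.8 with Tox RV. Its log2 fold change was 0.21 ± 0.16, and was 0.26 without EV RV replicate 1, the lower control library here being replicate 2. *Acat2*, the cytosolic thiolase ahead of it, measured 8.37 and 14.7 CPM with EV RV, against 12.8 and 17.9 with Tox RV, which overlapped. *Mvk*, the mevalonate kinase, was level in all libraries at 9.01 and 9.08 against 8.60 and 9.89 CPM. *Pmvk*, the kinase that follows, measured 15.9 and 23.6 CPM with EV RV, against 23.7 and 25.2 with Tox RV, so EV RV replicate 2 lay only just below the Tox RV libraries.

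*Mvd*, the decarboxylase that yields isopentenyl diphosphate, measured 12.6 and 10.1 CPM with EV RV, against 16.9 and 14.8 with Tox RV. Here the separation did not rest on EV RV replicate 1: its size was 0.48 ± 0.21 (log2 fold change) with all libraries, 0.64 without it and 0.34 without EV RV replicate 2. *Idi1*, the isopentenyl diphosphate isomerase, measured 68.3 and 95.8 CPM with EV RV, against 109 and 117 with Tox RV, or 82.1 ± 19.5 against 113 ± 5.84 (mean ± SD, n = 2 each). The log2 fold change of 0.46 ± 0.22 was 0.23 without EV RV replicate 1. *Fdps*, which makes farnesyl diphosphate, measured 79.2 and 145 CPM with EV RV, against 136 and 147 with Tox RV. EV RV replicate 1 alone was low, and the log2 fold change of 0.33 ± 0.30 became −0.04 without it.

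*Fdft1*, the squalene synthase that commits carbon to sterols, was alike in both groups at 19.4 and 22.5 CPM with EV RV, against 19.4 and 22.6 with Tox RV. *Sqle*, the squalene epoxidase and a control point of the pathway, measured 32.4 and 39.8 CPM with EV RV, against 41.8 and 46.1 with Tox RV. Its log2 fold change of 0.28 ± 0.19 became 0.14 when EV RV replicate 1 was left out and 0.45 when EV RV replicate 2 was. *Lss*, which closes the rings to lanosterol, measured 18.7 and 37.4 CPM with EV RV, against 34.2 and 37.4 with Tox RV. As for *Fdps*, EV RV replicate 1 set the *Lss* value, which was 0.35 ± 0.33 with it and −0.07 without it.

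*Cyp51*, the lanosterol demethylase, had the largest log2 fold change of the 18. It measured 58.8 and 82.2 CPM with EV RV, against 98.9 and 101 with Tox RV, or 70.5 ± 16.5 against 100 ± 1.59 (mean ± SD, n = 2 each). The groups separated, with a log2 fold change of 0.50 ± 0.21 and an adjusted p of 0.897 by edgeR's quasi-likelihood test. The value was 0.28 when EV RV replicate 1 was left out.

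Several of the enzymes that strip methyl groups from lanosterol and reshape its ring also had each Tox RV library above each EV RV library. *Msmo1*, the methylsterol oxidase, measured 14.4 and 17.2 CPM with EV RV, against 21.1 in each Tox RV library (log2 fold change 0.42 ± 0.19). *Nsdhl*, the sterol decarboxylase, measured 11.3 and 13.5 CPM with EV RV, against 16.1 and 18.2 with Tox RV (0.46 ± 0.20). *Hsd17b7*, the ketosteroid reductase of this complex, measured 17.2 and 21.8 CPM with EV RV, against 29.7 and 25.5 with Tox RV (0.50 ± 0.20). In each of these 3 genes the groups did not overlap and EV RV replicate 1 was lowest, and without that library the log2 fold changes were 0.29, 0.34 and 0.33. None passed the test, with an adjusted p of 0.897 for each by edgeR's quasi-likelihood test.

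*Ebp*, the sterol isomerase, measured 28.0 and 37.1 CPM with EV RV, against 38.1 and 38.7 with Tox RV, and *Sc5d*, the sterol desaturase, 26.0 and 28.3 against 32.7 and 34.3. *Ebp* rested on EV RV replicate 1, since its log2 fold change of 0.24 ± 0.20 was 0.04 without it, whereas *Sc5d* was 0.31 ± 0.17 with it and 0.24 without. *Tm7sf2*, a sterol reductase, measured 4.10 and 6.42 CPM with EV RV, against 4.57 and 6.61 with Tox RV. *Dhcr7*, which reduces dehydrocholesterol to cholesterol, measured 13.6 and 8.78 CPM with EV RV, against 10.4 and 11.1 with Tox RV, the only enzyme of the 18 with EV RV replicate 1 highest. Both overlapped between groups.

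**Figure D3:**
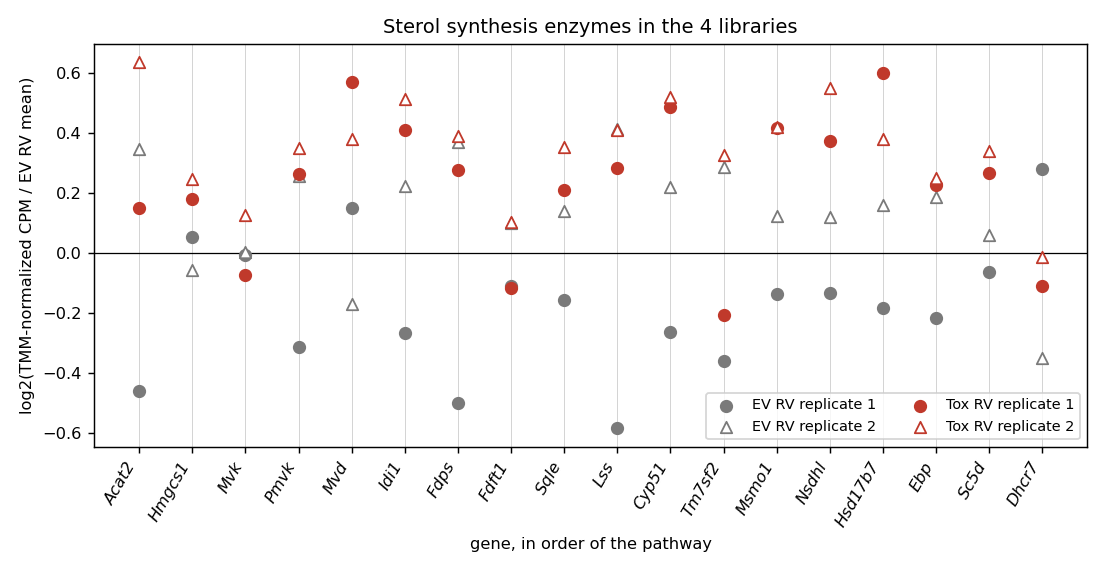
Log2 of each library's TMM-normalized CPM over the EV RV mean, for the 18 sterol enzymes in pathway order, with EV RV in grey and Tox RV in red (filled circles, replicate 1, and open triangles, replicate 2). For 11 genes (61.1%, against 18.6% of all genes tested) both red symbols lie above both grey symbols. The filled grey circle of EV RV replicate 1 is the lowest symbol for 13 of 18. That library was lowest for 5237 of all 14143 genes tested.

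The summed TPM of the 18 sterol enzymes was 395 and 533 with EV RV, against 536 and 574 with Tox RV, so EV RV replicate 2 was close to Tox RV replicate 1, and EV RV replicate 1 lay below all others. The median log2 fold change of the 18 was 0.19 without EV RV replicate 1, with 14 positive, and 0.51 without EV RV replicate 2, with 17 positive. It was 0.36 and 0.27 without Tox RV replicate 1 and 2. The direction of the median was the same in each case and its size depended on which control library was kept. The 7 enzymes before *Fdft1* and the 11 from *Fdft1* on had similar medians of 0.33 and 0.31. Set against EV RV replicate 2 alone, on log2 CPM, the medians were 0.05 for the 7 and 0.24 for the 11. Replicates differed by a median of 0.37 (log2) between the EV RV libraries and by 0.12 between the Tox RV libraries over these 18 genes. In such bulk samples fewer cells of a type and less RNA per cell cannot be told apart.

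**Figure D4:**
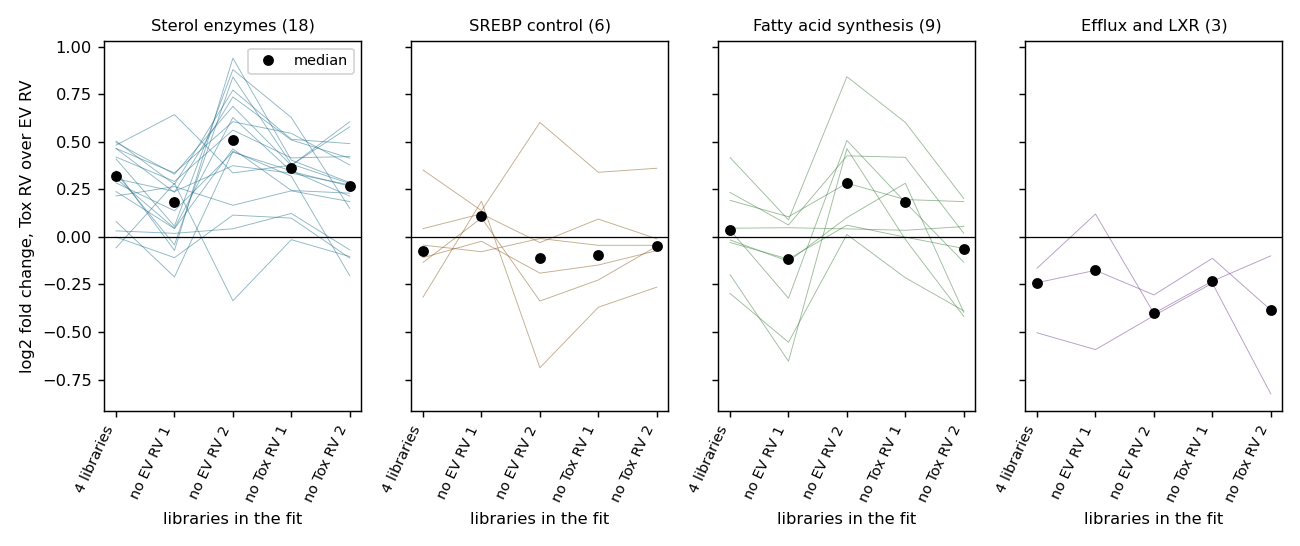
Log2 fold change of Tox RV over EV RV fitted with all 4 libraries and after leaving out 1 at a time, in 1 panel per role. Thin lines join the values of 1 gene and black points are the medians. The median of the sterol enzymes is 0.32 with all libraries, 0.19 without EV RV replicate 1 and 0.51 without EV RV replicate 2, and that of the fatty acid genes runs from −0.12 to 0.28.

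With EV RV replicate 1 as the only control, 4 members and 600 genes in all passed edgeR's quasi-likelihood test at an adjusted p below 0.05. The 4 members were *Fdps* (adjusted p 0.0434), *Lss* (0.0453), *Cyp51* (0.0453) and *Srebf2* (0.0495), the first 3 higher with Tox RV and *Srebf2* lower. No member passed when any of the other 3 libraries was left out. The share of *Rn45s* and the deviation of this library move with these values, and their part in them was not tested.

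Among the regulators, *Insig1*, an SREBP target that retains SCAP, followed the sterol enzymes. It measured 34.2 and 46.8 CPM with EV RV, against 51.9 and 51.5 with Tox RV, a log2 fold change of 0.35 ± 0.21 that was 0.14 without EV RV replicate 1. Its groups separated with Tox RV higher. Of the 6 regulators 1 separated this way (16.7%, against 18.6% of all genes tested) and 1, *Scap*, the other way (16.7%, against 17.4%). *Insig2*, its relative, overlapped at 13.6 and 9.93 CPM with EV RV, against 11.3 and 10.1 with Tox RV.

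*Srebf2*, which encodes the SREBP that mainly drives sterol genes, measured 259 and 140 CPM with EV RV, against 165 and 155 with Tox RV. EV RV replicate 1 was far above the other libraries, opposite to its place for most sterol enzymes, and EV RV replicate 2 was below them. This gave a log2 fold change of −0.32 ± 0.30 with all libraries, 0.19 without EV RV replicate 1 and −0.69 without EV RV replicate 2, so its sign depended on the control library. *Srebf1*, which encodes the SREBP more tied to fatty acid genes, was nearly level at 149 and 133 against 140 and 151 CPM. *Scap*, the escort, was 134 and 139 against 132 and 133 CPM, so both Tox RV libraries were lower, with a log2 fold change of −0.04 ± 0.16 whose sign turned under library totals. *Stard4*, a sterol carrier, measured 32.3 and 28.5 CPM with EV RV, against 28.8 and 27.5 with Tox RV, which overlapped.

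The fatty acid genes showed no common direction, with 5 positive and 4 negative log2 fold changes. *Acly*, which makes cytosolic acetyl-CoA from citrate, measured 230 and 258 CPM with EV RV, against 276 and 280 with Tox RV (0.19 ± 0.16, and 0.11 without EV RV replicate 1), and *Fasn*, the synthase, 752 and 742 against 774 and 768 (0.05 ± 0.15). For both genes the groups separated with Tox RV higher, by 1.14-fold and 1.03-fold. They were 2 of the 9 fatty acid genes (22.2%), a share near the 18.6% of all genes tested. In TPM the sign of *Fasn* turned and its groups overlapped. *Acaca*, the acetyl-CoA carboxylase that makes malonyl-CoA, overlapped at 207 and 232 CPM with EV RV, against 210 and 220 with Tox RV.

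The desaturases, which put double bonds into fatty acids, varied more between replicates than between groups. *Scd1* measured 36.1 and 77.7 CPM with EV RV, against 42.6 and 56.7 with Tox RV, and *Scd2* 661 and 1164 against 831 and 1040. For both genes the 2 EV RV libraries held the lowest and the highest value with the Tox RV libraries between them, and the log2 fold changes were −0.20 ± 0.38 and 0.04 ± 0.30. *Fads1* measured 20.8 and 24.1 CPM with EV RV, against 17.0 and 27.4 with Tox RV, and *Fads2* 10.4 and 17.4 against 16.0 and 21.3. Both are desaturases of polyunsaturated fatty acids, and both overlapped between groups.

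*Elovl6*, which elongates saturated chains, had the most negative value of the fatty acid genes at −0.30 ± 0.24. It measured 33.5 and 49.2 CPM with EV RV, against 31.5 and 35.8 with Tox RV, where EV RV replicate 1 lay between the Tox RV libraries. *Acsl3*, an acyl-CoA synthetase, overlapped at 13.4 and 17.1 against 15.5 and 20.5 CPM. The median of the 9 genes was −0.12 without EV RV replicate 1 and 0.28 without EV RV replicate 2, on either side of 0.

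*Abca1* and *Abcg1*, the LXR-driven exporters of cholesterol, separated with Tox RV lower. They were 2 of only 3 efflux and LXR genes (66.7%, against 17.4% of all genes tested). *Abca1* measured 12.7 and 14.2 CPM with EV RV, against 7.57 and 11.4 with Tox RV, or 13.4 ± 1.09 against 9.49 ± 2.72 (mean ± SD, n = 2 each). Its log2 fold change of −0.50 ± 0.26 was the most negative of the 36 and did not pass the test (adjusted p 0.897 by edgeR's quasi-likelihood test). The value was −0.59 without EV RV replicate 1, −0.24 without Tox RV replicate 1 and −0.83 without Tox RV replicate 2, so its size depended on Tox RV replicate 1. *Abcg1* measured 34.0 and 30.8 CPM with EV RV, against 24.7 and 30.1 with Tox RV (−0.24 ± 0.19). Here Tox RV replicate 2 lay only just below EV RV replicate 2. The *Abcg1* value was −0.11 without Tox RV replicate 1 and −0.38 without Tox RV replicate 2. When libraries were scaled by their totals alone, the groups overlapped for both genes.

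*Nr1h2*, which encodes LXRβ, measured 79.0 and 54.5 CPM with EV RV, against 62.1 and 57.0 with Tox RV, an overlap in which EV RV replicate 1 was highest. Its log2 fold change was −0.16 ± 0.23 with all libraries and 0.12 without EV RV replicate 1.

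A wider list of 32 further genes of sterol and fatty acid metabolism held 31 that were tested. Of these 23 had positive and 8 negative log2 fold changes, with a median of 0.13. The groups separated with Tox RV higher for 12 (38.7%, against 18.6% of all genes) and lower for 2 (6.45%, against 17.4%). None passed an adjusted p of 0.05 in edgeR's quasi-likelihood test or in DESeq2, and at an unadjusted p below 0.05 edgeR had 0 and DESeq2 1. Of 15 genes of fatty acid oxidation, the opposite pathway, 11 were positive and 4 negative, with a median of 0.04, and the groups separated with Tox RV higher for 5 (33.3%, against 18.6% of all genes) and lower for 1 (6.67%, against 17.4%). Again 0 passed either tool's adjusted threshold, and 0 had an unadjusted p below 0.05 in either.

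A list of 10 genes tied to growth and restimulation had 5 positive and 5 negative values and a median of 0.08. It held *Myc*, *Tfrc*, *Il2ra*, *Cd69*, *Egr1*, *Egr2*, *Nr4a1*, *Slc7a5*, *Slc3a2* and *Tnfrsf9*. At an adjusted p below 0.05 neither edgeR nor DESeq2 called any of them. At an unadjusted p below 0.05 edgeR had 2, with opposite signs, against 3.62% of all genes, and DESeq2 had 3, against 619 of the 19286 genes it tested. *Tnfrsf9*, encoding the activation receptor 4-1BB, measured 726 and 824 CPM with EV RV, against 1181 and 1010 with Tox RV, a log2 fold change of 0.50 ± 0.17. *Myc*, encoding a growth regulator, measured 226 and 166 CPM with EV RV, against 147 and 117 with Tox RV, a log2 fold change of −0.57 ± 0.23. Their adjusted p was 0.897 each by edgeR's quasi-likelihood test.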

How the data were processed

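RNA-seq of 4 libraries, 2 EV RV and 2 Tox RV, grouped by their labels, was analysed from the deposited files. Per the study's methods, reads went through FastQC, bowtie (against mm10 transcripts) and RSEM, 1 library per file. Their processing notes also name Bowtie2, versions beyond these names are not given in the sources used here, and use of strand is not given. In the deposited tables the expected counts, estimated by RSEM for each gene and not normalized, were rounded to whole numbers. The deposited TPM values are per 1000000 transcripts, also from RSEM, and served for levels between genes. A table of the whole series and columns of FPKM were not used.

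In R 4.3.3, edgeR 4.0.16 kept 14143 genes (filterByExpr, minimum count 10), scaled by TMM and compared the groups by its quasi-likelihood test, with Benjamini-Hochberg adjustment over all genes. The common biological coefficient of variation was 0.232. Standard errors came from the log2 fold change and the F statistic. Alternatives were DESeq2 1.42.0 (the tool of the study's methods), median-of-ratios scaling, library totals, other low-count filters, a replicate block, limma 3.58.1 on log2(TPM + 1) and log2(TPM + 0.1), and each library left out. With 1 library left in a group, it was assumed to vary as the other group did. The code was tested on simulated data.

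The other gene lists, like the members, were chosen with earlier results of these data known. Every member could be named with values. Of the other lists, genes with an unadjusted p below 0.05 were named, and *Tox* served as the check of labels. Whether a replicate number marks 1 mouse in both groups is not given, so the libraries were not paired. The p-values set each group difference against the spread between libraries within the groups, estimated partly from all genes. RSEM divides reads shared by near-identical copies, and 5 of the 36 genes overlap another protein-coding gene (*Fdft1*, *Tm7sf2*, *Srebf1*, *Acaca* and *Acsl3*), so their counts are less certain. Start regions came from RefSeq and motifs were matched letter by letter.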

Additional observations from a re-analysis of the deposited data

How the results depend on the processing

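With 2 libraries per group, the median difference of the members depended on which libraries were kept. The number of members past an adjusted p of 0.05 was 0 in every alternative with 4 libraries and 0 to 4 when each library was left out, the 4 arising without EV RV replicate 2. The number at an unadjusted p below 0.05 was 0 in the reported fit (512 of 14143 genes in all), 1 with library totals (465 of 14143), 2 without a low-count filter (996 of 19286), 7 with the replicate block (1232 of 14143) and 0 to 17 when each library was left out. The 17 arose without EV RV replicate 2, where 4281 of 14408 genes in all were past it, and 3 arose without EV RV replicate 1, with 1093 of 14602. The block is not backed by the labels. Over the 14143 genes tested, the log2 difference between replicates 1 and 2 in EV RV correlated at 0.302 with that in Tox RV. This does not settle whether same-numbered libraries share a mouse. The block called 0 members and 16 genes in all at an adjusted p below 0.05. The median log2 fold change of the members was 0.25 with library totals, a scaling that moved the median of all genes to 0.12, and 0.036 to 0.35 when each library was left out.

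Of the 36 members, 18 kept their sign in all 12 alternatives, among them 12 of the 18 sterol enzymes. With library totals the sign turned for *Fdft1* (0.12), *Dhcr7* (0.083), *Scap* (0.077), *Stard4* (0.018), *Acaca* (0.087) and *Fads1* (0.10), and without a low-count filter for *Fdft1* (0.011). With limma on log2(TPM + 1) and log2(TPM + 0.1) it turned for *Mvk* (−0.048 and −0.053), *Srebf1* (−0.038 in each) and *Fasn* (−0.037 and −0.038). With each library left out, the log2 fold change crossed 0 for 6 sterol enzymes, at −0.069 to 0.12 for *Mvk*, −0.042 to 0.84 for *Fdps*, −0.11 to 0.11 for *Fdft1*, −0.071 to 0.94 for *Lss*, −0.21 to 0.45 for *Tm7sf2* and −0.34 to 0.28 for *Dhcr7*. It did so for regulators and LXRβ at −0.030 to 0.12 for *Srebf1*, −0.69 to 0.19 for *Srebf2*, −0.34 to 0.099 for *Insig2* and −0.40 to 0.12 for *Nr1h2*, and for fatty acid genes at −0.12 to 0.061 for *Acaca*, −0.65 to 0.46 for *Scd1*, −0.32 to 0.51 for *Scd2*, −0.55 to 0.012 for *Elovl6* and −0.40 to 0.28 for *Fads1*. The cause of a changed sign was not tested. Each member had at least 173 counts in each library.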
